A study of Homo sapiens with 10 samples.

Results

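MAGE genes (melanoma antigen genes) were followed in DU145 cells with lowered SOX4. The members were 9 genes picked by symbol, and all 9 had a row among the 13527 features of the deposited RNA-seq table. Of these, 4 are type I genes (MAGEA1, MAGEA3, MAGEA6 and MAGEA12) and 5 are type II genes (MAGED1, MAGED2, MAGED4, MAGEF1 and MAGEH1). They were chosen on their values in the comparison of SOX4 knockdown with control, so their differences between those groups are given as a description, without a test.

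DU145 is an established human prostate cancer cell line. SOX4 binds DNA through an HMG box, as other SOX factors do, and the study concerns its role in the shift of prostate cancer cells toward a neuroendocrine state. The 3 shCon libraries came from the DU145-shCon control line (genotype Scramble) and the 3 shSOX4 libraries from the DU145-shSOX4 line, in which SOX4 was knocked down. All were labelled as otherwise untreated and were grown in serum-containing medium, and neither the number of cell clones nor separate cultures are stated, so the spread between the libraries may be technical. The 4 ATAC-seq libraries of the series, made after SOX4 overexpression or with its empty vector, were not used here.

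MAGE proteins share a MAGE homology domain, through which many of them bind RING-type ubiquitin ligases and steer them to particular substrates. Type I genes lie in clusters on the X chromosome, are normally transcribed mainly in the germ line, and are silenced elsewhere with methylation of CpG dinucleotides in their promoters. Many tumours transcribe them again, and peptides of their proteins are displayed to T cells, hence the name cancer-testis antigens. Type II genes are transcribed in most tissues and take part in growth control, apoptosis and DNA repair.

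The promoters are shown because the type I members moved together and because their silencing is known to depend on methylation of promoter CpGs. The sequence gives the places of the CpGs and not their methylation. RefSeq promoter windows of 300 bases were found for 7 of the 9 members, and none for MAGEA1 or MAGEH1. The following are from GRCh38.p14, written 5′ to 3′ on the gene's strand, with each CpG in capitals. MAGEA3 lies at chrX:152698544-152698843 (plus strand), MAGEA12 (its second start) at chrX:152733612-152733911 (plus strand), MAGEF1 at chr3:184712015-184712314 (minus strand) and MAGED1 (its second start) at chrX:51893373-51893672 (plus strand).
MAGEA3: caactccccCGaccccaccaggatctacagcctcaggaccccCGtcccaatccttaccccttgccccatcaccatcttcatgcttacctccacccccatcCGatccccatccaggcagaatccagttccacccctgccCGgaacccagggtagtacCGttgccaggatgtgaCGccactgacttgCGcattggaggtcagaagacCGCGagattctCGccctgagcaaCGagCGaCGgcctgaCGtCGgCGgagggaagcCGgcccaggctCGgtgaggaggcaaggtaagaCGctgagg
MAGEA12: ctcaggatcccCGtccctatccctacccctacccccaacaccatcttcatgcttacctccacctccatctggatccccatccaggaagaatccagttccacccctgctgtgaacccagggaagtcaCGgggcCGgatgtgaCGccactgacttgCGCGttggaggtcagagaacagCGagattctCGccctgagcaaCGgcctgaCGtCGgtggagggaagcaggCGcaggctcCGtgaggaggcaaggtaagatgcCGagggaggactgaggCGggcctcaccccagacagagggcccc
MAGEF1: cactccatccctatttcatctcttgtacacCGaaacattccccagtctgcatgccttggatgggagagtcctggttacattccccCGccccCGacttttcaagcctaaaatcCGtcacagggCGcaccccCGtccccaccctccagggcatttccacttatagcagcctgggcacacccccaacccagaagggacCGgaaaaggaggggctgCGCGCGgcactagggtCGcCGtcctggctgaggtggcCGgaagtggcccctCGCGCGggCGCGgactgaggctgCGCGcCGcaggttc
MAGED1: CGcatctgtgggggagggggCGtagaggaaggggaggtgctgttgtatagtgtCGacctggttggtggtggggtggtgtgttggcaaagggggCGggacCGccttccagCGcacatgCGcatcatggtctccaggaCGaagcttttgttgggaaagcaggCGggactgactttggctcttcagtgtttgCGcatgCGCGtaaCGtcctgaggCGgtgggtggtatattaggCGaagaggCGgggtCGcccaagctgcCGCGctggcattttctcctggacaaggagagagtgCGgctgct

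The MAGEA6 window, at chrX:152769640-152769939 on the minus strand, was identical to that of MAGEA3 at all 300 bases. MAGEA12 matched MAGEA3 at 236 bases (78.7% in a global alignment), whereas MAGEF1 matched it at 170 (56.7%). Among the members with a window, CpG counts did not separate the types. The MAGEA3 and MAGEA6 windows held 19 CpGs and those of MAGEA12 held 9 and 15, beside 21 for MAGEF1, 10 and 20 for MAGED1, 10 and 11 for MAGED2 and 26 for MAGED4, with a median of 14 over all 35116 windows and 25 over windows of genes in the table. The letters CCGGAA, a form of the site bound by Ets factors, were searched on both strands. Other and shorter forms of the site were not searched. They occurred in the MAGEA3 and MAGEA6 windows, in 1 of the windows each of MAGED1 and MAGED2 and at 2 places in MAGEF1, and were in neither MAGEA12 window, whereas 17.2% of all windows and 27% of those of genes in the table held them. The SOX-type letters AACAAAG and AACAAT, searched on both strands, were in none of the members' 10 windows, and in 5.2% and 10.1% of all windows, or 3.58% and 5.73% of those of genes in the table.

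SOX4 itself stood at 12.9, 10.1 and 8.48 CPM (counts scaled to library size with TMM factors) in shCon 1, 2 and 3 and at 4.55, 6.44 and 6.01 CPM in shSOX4 1, 2 and 3. Every knockdown library was below every control, with 53.9% remaining. Libraries held 31189910 to 43361609 counts. On the second principal component, with 15.7% of the variance, shCon 3 and shSOX4 1 stood apart from the other 4 libraries, and values without them are given where they change the call of a member or of another gene described. All 6 epithelial markers had rows, 2 called higher and 3 called lower in shSOX4, against 17% and 15.8% of all features. KRT8 and KRT18 were among the abundant transcripts. Of 5 leukocyte markers only CD14 had a row, at 2.18 ± 0.925 CPM in shCon and 2.87 ± 1.33 CPM in shSOX4 (± SD, n = 3 per group).

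All 4 type I members were several-fold higher in shSOX4 than in shCon. In these bulk libraries, more cells with a transcript and more of it per cell cannot be told apart. MAGEA1, the antigen that gave the family its name and a partner of the transcriptional co-regulator SNW1, stood at 2.19, 3.28 and 2.48 CPM in shCon 1, 2 and 3 and at 15, 16.2 and 20.7 CPM in shSOX4 1, 2 and 3. The groups did not overlap, and the highest value was that of shSOX4 3. The means were 2.65 ± 0.564 and 17.3 ± 3.01 CPM (± SD, n = 3 per group), which is a log2 difference of 2.71 (SE 0.241) or 6.53-fold, with a 95% interval from 2.19 to 3.22 on the log2 scale.

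MAGEA12 had the largest fold change of the members. It was counted at 2.96, 3.52 and 2.19 CPM in shCon and at 19.5, 24 and 24 CPM in shSOX4. The libraries of a group lay close together beside the gap between the groups. The log2 fold change was 2.96 (SE 0.235, interval 2.46 to 3.46), 7.77-fold. The ratio of its counts to its FPKM (fragments scaled to transcript length and library size), once scaled per library, ran from 0.791 to 1.07 of its mean. For the other members these ratios lay between 0.972 and 1.04.

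MAGEA3 and MAGEA6, whose proteins join the ligase TRIM28 and direct it to AMP-activated protein kinase, are near-identical genes, so the split of reads between them is uncertain. MAGEA3 stood at 1.64, 1.16 and 2.07 CPM in shCon and at 7.74, 9.72 and 10.7 CPM in shSOX4. MAGEA6 stood at 3.11, 3.36 and 4.11 CPM in shCon and at 22.4, 20.9 and 26.1 CPM in shSOX4. Neither gene's groups overlapped, and their log2 fold changes were 2.53 (SE 0.277) for MAGEA3 and 2.72 (SE 0.216) for MAGEA6. Summed before the fit, which removes the question of the split, the pair went from 5.15 ± 0.901 to 32.5 ± 3.75 CPM (± SD, n = 3 per group), which is a log2 difference of 2.66 (SE 0.21, interval 2.21 to 3.11). MAGEA3 took 31.2 ± 4.9% of the counts of the pair in shCon and 28.8 ± 3% in shSOX4, a difference within the spread of the libraries, although the promoter windows of the pair were identical.

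**Figure D1:**
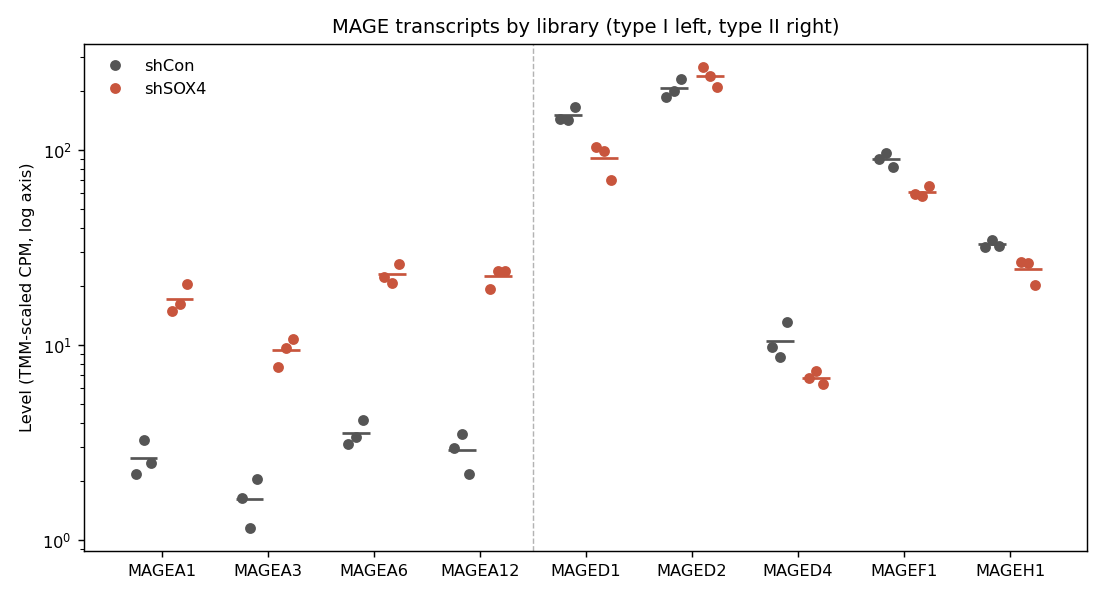
Level of each member in each library, in TMM-scaled CPM on a log axis, with shCon in grey and shSOX4 in red, points for the 3 libraries of a group and a line at their mean. The 4 type I genes on the left lie between 1.16 and 4.11 CPM in shCon and between 7.74 and 26.1 CPM in shSOX4, whereas the type II genes on the right differ far less.

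In the fit of all features, 4 of the 4 type I members passed an adjusted p under 0.05 as higher, against 17% of all features (32.8% were called in either direction), and none was lower (edgeR; none at an unadjusted p under 0.05, by DESeq2 or by limma-voom). For all 4 the lowest shSOX4 library exceeded the highest shCon library, as for 23.1% of features. Since this contrast chose the members, nothing is read from these counts. Their median log2 fold change was 2.71, beside -0.01 for all features, and 256 features (1.89%) had a value at or above that of MAGEA3, the smallest of the 4. Each type I member had at least 1.18 CPM, before TMM scaling, in every control library, so all 4 would have entered the table on their control values alone. Log2 fold changes in the authors' deposited table are 2.54 for MAGEA1, 2.32 for MAGEA3, 2.58 for MAGEA6 and 2.79 for MAGEA12.

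No type II member was called higher. MAGED1, also called NRAGE, which binds the p75 neurotrophin receptor and promotes apoptosis, stood at 145, 143 and 167 CPM in shCon 1, 2 and 3 and at 103, 99.2 and 70.5 CPM in shSOX4 1, 2 and 3. Every knockdown library was below every control, with shSOX4 3 lowest. The means were 152 ± 13 and 91 ± 17.9 CPM (± SD, n = 3 per group), which is a log2 difference of -0.74 (SE 0.177, interval -1.11 to -0.36), and 60% remained.

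MAGEF1, which works with the ligase NSMCE1 to direct the iron-sulfur assembly factor MMS19 to degradation, was counted at 90.3, 96.6 and 81.7 CPM in shCon and at 59.5, 58.4 and 65.5 CPM in shSOX4. The groups did not overlap. The log2 fold change was -0.55 (SE 0.161, interval -0.89 to -0.21), and 68.3% remained.

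MAGED4 has a near-identical copy, MAGED4B, so the division of their reads is uncertain too; their promoter windows share an unbroken stretch of 276 bases. MAGED4 stood at 9.79, 8.68 and 13.1 CPM in shCon and at 6.78, 7.34 and 6.28 CPM in shSOX4, with no overlap and a log2 fold change of -0.63 (SE 0.221). MAGED4B, which is not on the member list, went from 12 ± 2.53 to 8.27 ± 2.3 CPM (± SD, n = 3 per group), with overlapping groups, a log2 fold change of -0.53 and no call (edgeR adjusted p = 0.105). It passed without shSOX4 1 (log2 -0.77) and without both shCon 3 and shSOX4 1 (log2 -0.60). Summed before the fit, the pair went from 22.5 ± 4.63 to 15.1 ± 2.45 CPM (± SD, n = 3 per group), which is a log2 difference of -0.58 (SE 0.21, interval -1.03 to -0.13).

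MAGEH1, a small and little-studied type II protein, had a narrower difference. Its levels were 31.9, 34.5 and 32.3 CPM in shCon and 26.6, 26.3 and 20.4 CPM in shSOX4. The groups did not overlap, yet the gene did not pass in the fit of all features. Its log2 fold change was -0.43 (SE 0.182, interval -0.82 to -0.04). Without both shCon 3 and shSOX4 1 the value was -0.51 and passed.

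MAGED2, mutated in a transient form of antenatal Bartter syndrome, had the highest FPKM of the members and was the only type II gene on the list with a positive value. It stood at 188, 202 and 232 CPM in shCon 1, 2 and 3 and at 267, 241 and 210 CPM in shSOX4 1, 2 and 3. The groups overlapped, since shSOX4 3 lay below shCon 3. The means were 207 ± 22.6 and 239 ± 28.6 CPM (± SD, n = 3 per group), and the log2 fold change of 0.21 (SE 0.161) had an interval from -0.14 to 0.55.

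Of the 5 type II members, 3 (MAGED1, MAGED4 and MAGEF1) were called lower in the fit of all features, against 15.8% of features, and none was called higher (edgeR; none at an unadjusted p under 0.05, by DESeq2 or by limma-voom). With 4 of the 5, every shSOX4 library was below every shCon library, as for 23.9% of features. Their median log2 fold change was -0.55. By DESeq2 3 type II members were lower, and by limma-voom 2. MAGED4 lost its call when any single library other than shCon 2 was left out, 5 fits of 6, and in the fit without both shCon 3 and shSOX4 1 (log2 -0.44). MAGED4 was also not called under total-count scaling, by limma-voom, with the replicate number as a block or by limma on log2(FPKM + 1). The call of MAGEF1 was lost with that block, without shCon 2 and without shSOX4 2. Without shSOX4 2 only 1 type II member, MAGED1, was thus called. Log2 fold changes in the authors' deposited table are -0.70 for MAGED1, 0.20 for MAGED2, -0.59 for MAGED4, -0.53 for MAGEF1 and -0.41 for MAGEH1.

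**Figure D2:**
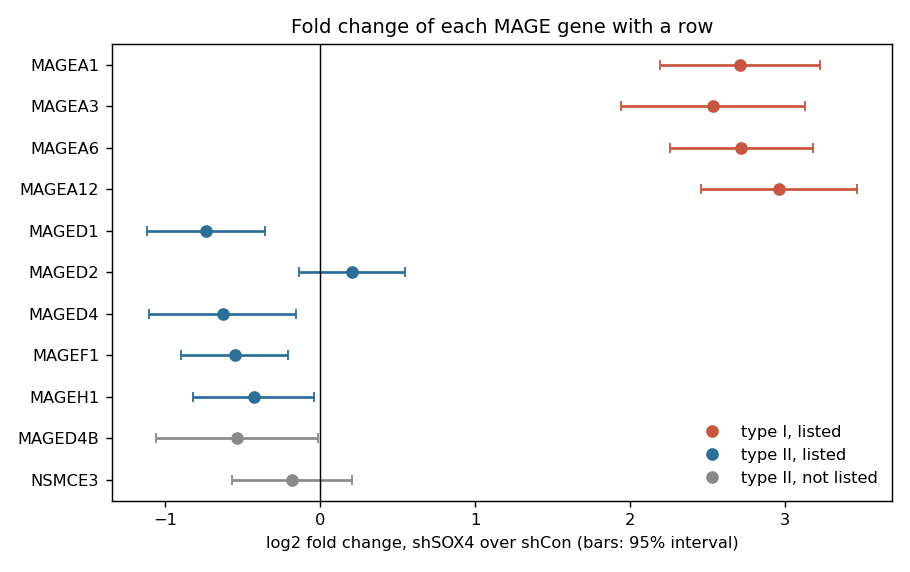
Log2 fold change of shSOX4 over shCon for the 9 members and for MAGED4B and NSMCE3, with points for the fitted value and bars for the 95% interval. The lowest type I interval starts at 1.94. The intervals of MAGED2 and NSMCE3 span 0, and those of the other type II genes lie below 0 with values from -0.74 to -0.43.

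NSMCE3 (also called MAGEG1), the type II protein of the SMC5/6 complex that repairs and resolves DNA, was the other MAGE gene with a row. Its mean was 27.8 ± 0.817 CPM in shCon and 24.5 ± 3.16 CPM in shSOX4 (± SD, n = 3 per group), with a log2 fold change of -0.18 (SE 0.181, interval -0.57 to 0.20, edgeR adjusted p = 0.461). The remaining 22 type I genes of the family list and 5 type II genes had no row and were not analysed here.

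Set against each other, the balance of the types shifted in every knockdown library. The log2 ratio of summed type I to summed type II CPM was -5.55, -5.42 and -5.60 in shCon 1, 2 and 3 and -2.84, -2.61 and -2.19 in shSOX4 1, 2 and 3. The difference of the group means was 2.98, with SDs of 0.0915 in shCon and 0.33 in shSOX4 (n = 3 each). Most of it came from type I, whose sum went from 10.7 ± 0.719 to 72.3 ± 8.58 CPM (6.77-fold), while the type II sum went from 492 ± 31.1 to 422 ± 46.1 CPM (± SD, n = 3 per group). Type II transcripts remained the larger share.

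Levels of different genes can be compared only per length, for which the deposited FPKM values were used. In shCon the order of mean FPKM was MAGED2 (92.2), MAGED1 (51.3), MAGEF1 (51.1), MAGEH1 (20.9), MAGED4 (3.74), MAGEA6 (1.85), MAGEA12 (1.60), MAGEA1 (1.44) and MAGEA3 (0.854). MAGED1 and MAGEF1 overlapped between libraries, as did MAGEA6, MAGEA12 and MAGEA1, and the other neighbours in this order did not. Every type I gene was thus below every type II gene in control cells. In shSOX4 the order was MAGED2 (109), MAGEF1 (34.9), MAGED1 (31.1), MAGEH1 (15.7), MAGEA12 (13.4), MAGEA6 (12.4), MAGEA1 (9.44), MAGEA3 (5.23) and MAGED4 (2.42). All 4 type I genes then stood above MAGED4 without overlap, and MAGEA12 overlapped with MAGEH1 and MAGEA6, as MAGEF1 did with MAGED1. The other neighbours did not overlap. MAGED4B, the near-identical copy of MAGED4, stood at 2.99 FPKM in shSOX4. Since the split of reads is uncertain in that pair and between MAGEA3 and MAGEA6, the order of MAGEA3 and MAGED4 is uncertain too. Among all features, mean FPKM of the type I genes was at percentiles 15.8 to 29.5 in shCon and 50.5 to 68.6 in shSOX4.

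Within type I the mixture stayed close while the total was several-fold higher. MAGEA6 made up 32.4 ± 4.39% of the summed type I FPKM in shCon and 30.7 ± 1.51% in shSOX4, and MAGEA1 made up 24.8 ± 3.72% and 23.2 ± 2.27% (± SD, n = 3 per group). MAGEA12 went from 27.6 ± 6.35% to 33.2 ± 3.81% and MAGEA3 from 15.1 ± 4.63% to 12.9 ± 1.45%, and for each of the 4 the libraries of both groups overlapped. Type II was different. MAGED2 went from 42.1 ± 2.62% to 56.5 ± 1.31% of the summed type II FPKM and MAGED1 went from 23.4 ± 0.873% to 15.9 ± 1.77% (± SD, n = 3 per group), both without overlap. Together type I made up 2.55 ± 0.176% of the FPKM of the 9 members in shCon and 17.4 ± 2.57% in shSOX4.

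**Figure D3:**
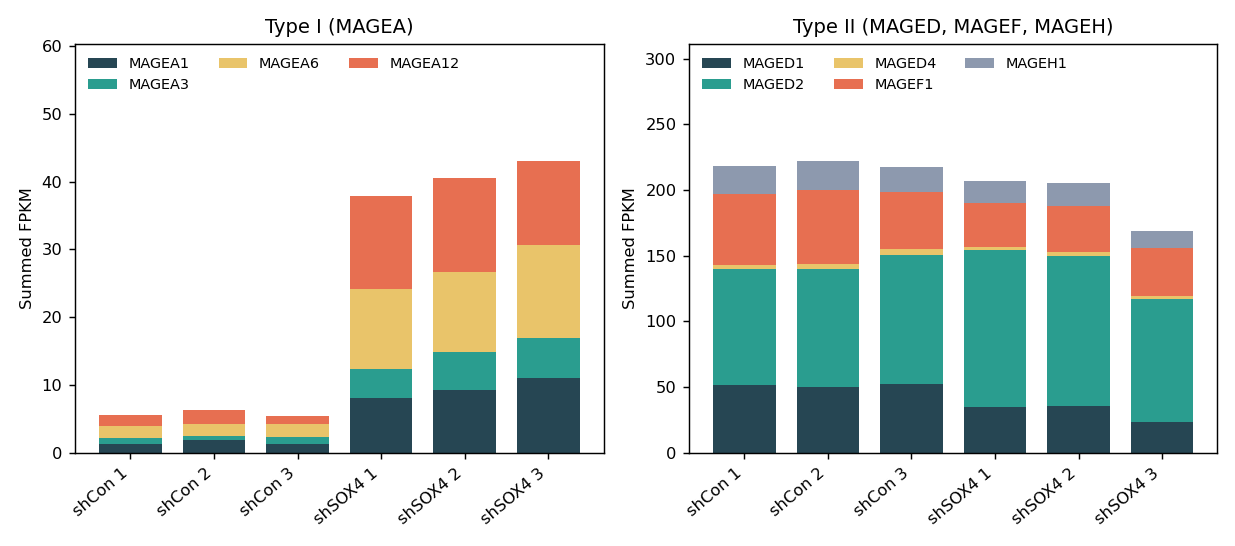
Summed FPKM of the type I members (left) and the type II members (right) in each library, stacked by gene; both vertical axes start at 0 and differ in scale. The type I total goes from 5.39 to 6.30 in shCon to 37.8 to 43.1 in shSOX4 with similar shares of each gene, and MAGED2 takes a larger share of type II in shSOX4.

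Profiles over the 6 libraries, each centred on its own mean log2 CPM, were compared by their root mean square difference. Pairs of type I members differed by 0.218 (MAGEA1 and MAGEA6) to 0.492 (MAGEA3 and MAGEA12) log2 units and pairs of type II members by 0.183 (MAGED1 and MAGED4) to 0.488 (MAGED1 and MAGED2), whereas pairs across the types differed by 1.22 to 1.9. Among 9628 protein-coding genes averaging 5 CPM or more, those closest to the summed type I profile were CPA4, a carboxypeptidase (0.159), DAB2, an endocytic adaptor (0.162), MTARC1 (0.167) and IVL, the keratinocyte protein involucrin (0.179). Closest to the summed type II profile were TULP3 (0.0351), RAD9A (0.0418), PHF12 (0.0428) and DNASE2 (0.0466). Their log2 fold changes ran from -0.24 (RAD9A) to -0.28 (PHF12), beside a median of -0.55 for the type II members. That sum includes MAGED2, whose value was positive, so closeness to it is not closeness to each member. The distances include the difference between the groups, on which the members were chosen. The genes closest to type I are thus largely those with a like log2 fold change (2.51 for MTARC1 to 2.85 for IVL). IVL stood at 1.24 CPM in shCon and 8.97 CPM in shSOX4, so it averaged 5 CPM or more only through its shSOX4 level.

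The chromosomal surroundings were not part of the choice of members. The type I members lie in Xq28, and all other members but MAGEF1, on chromosome 3, lie on the X chromosome too. The 398 other X-linked protein-coding genes with a row had a median log2 fold change of 0.49, with 160 called higher and 28 called lower (edgeR). Among all features, 17% were called higher and 15.8% lower. By median log2 fold change, MAGE genes included, the X chromosome ranked highest of 23 chromosomes, followed by chromosome 13 (0.36), with chromosome 19 lowest (-0.27). The part of this shift in the MAGE values was not tested. The type I values lay well above the X-chromosome median, and those of MAGED1, MAGED2, MAGED4 and MAGEH1 lay below it.

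Closer by, 15 protein-coding genes run from MAGEA3 to MAGEA1 in RefSeq order, and 5 of these other than MAGE genes had a row. CSAG1, a cancer-testis gene, was the only 1 of the 5 that was called, beside 32.8% of all features. It starts 36 bases from the nearer start of MAGEA12 on the opposite strand, and its promoter window overlaps that of the second MAGEA12 start by 240 bases. CSAG1 stood at 1.10, 1.99 and 1.89 CPM in shCon and at 23.8, 15.8 and 17.3 CPM in shSOX4, with no overlap and a log2 fold change of 3.52 (SE 0.28, edgeR adjusted p = 7.45e-07). From the starts given, MAGEA12 and CSAG1 run away from each other, so it is their promoter windows that overlap. Whether counting used strand is not stated, so their reads may not be fully separable if transcripts from other starts overlap. The other 4, chosen after their values were seen, were CETN2 (log2 0.63, edgeR adjusted p = 0.0516), NSDHL (0.14), ZNF185 (-0.37) and PNMA6A (-0.50). With 10 further genes on each side, 3 of 12 measured genes other than MAGE genes were called, against 32.8% of all features. All 3 were higher, against 17% of all features, and the median log2 fold change of the 12 was 0.23. Besides CSAG1 these were GABRE, a GABA receptor subunit gene, with 31 counts over the 3 shCon libraries and 241 over the 3 shSOX4 libraries, which had a row through its shSOX4 level, and BGN, the proteoglycan biglycan, from 2.21 ± 0.118 to 9.64 ± 1.83 CPM (± SD, n = 3 per group), with an edgeR adjusted p = 2.6e-05.

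**Figure D4:**
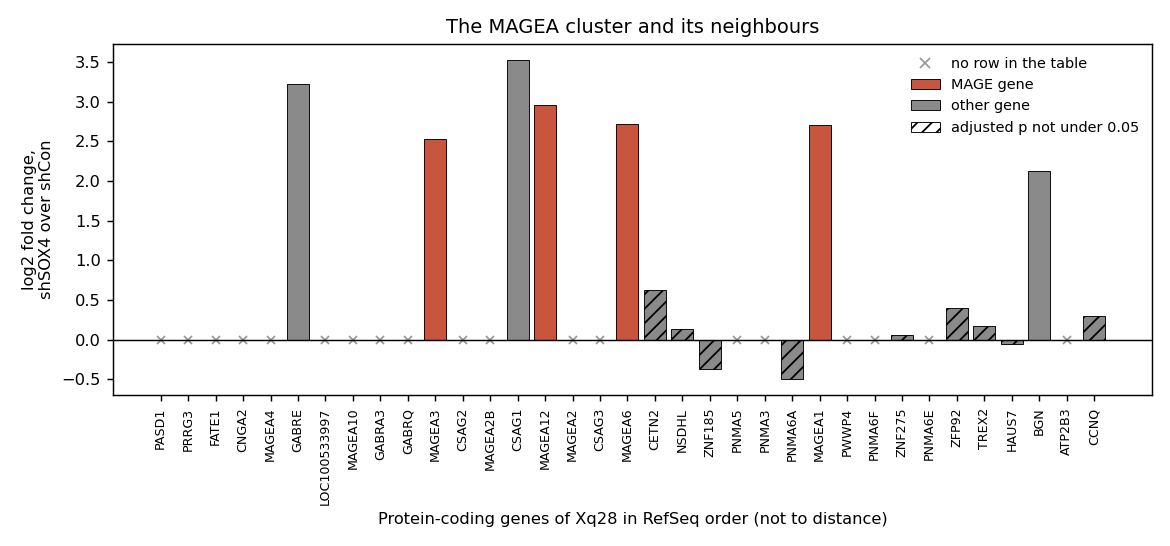
Log2 fold change of shSOX4 over shCon for protein-coding genes of Xq28 in RefSeq order, with MAGE genes in red, other genes in grey, hatching where the adjusted p was not under 0.05 and crosses for genes with no row. The 4 MAGEA genes reach 2.53 to 2.96 and CSAG1 3.52, while CETN2, NSDHL, ZNF185 and PNMA6A between them lie from -0.50 to 0.63.

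Other cancer-testis genes are silenced outside the germ line in the same general way. Of 47 listed, 12 had a row, and 8 of the 12 were called higher and none lower (edgeR; none lower at an unadjusted p under 0.05, by DESeq2 or by limma-voom), with a median log2 fold change of 1.10. Shares over all features were 17% higher and 15.8% lower. Of the 12, 7 lie on the X chromosome. There 40.3% of 407 genes, MAGE genes included, were called higher, with a median of 0.49. The table's entry level bears on the count of 8, because 5 of the 12 were under 1 CPM in at least 1 control library, and so had a row through their shSOX4 level. Control libraries alone would have admitted 7, of which 4 are X-linked. Of these 7, 3 (CSAG1, PRAME and CT83) were called higher, with a median of 0.24. Without shCon 2 only CSAG1 of these was called, and the call of CT83 was also lost without shCon 1 or shSOX4 3. XAGE2 had 2, 5 and 4 counts in shCon 1, 2 and 3 and 152, 141 and 175 in shSOX4 1, 2 and 3. CT45A1 went from 0.532 ± 0.0936 to 6.76 ± 2.12 CPM and ACTL8, an actin-like gene of the testis on chromosome 1, from 0.475 ± 0.253 to 3.59 ± 0.567 CPM (± SD, n = 3 per group); these 3 had a row through their shSOX4 level, as had GAGE2A, and are given without a test. GAGE2A had 5 counts in shCon 1, none in shCon 2 or 3 and 55, 34 and 45 in shSOX4; XAGE2, CT45A1 and GAGE2A have close copies, so their reads are uncertain. GAGE2A, CT83 and the following are named after their values were seen. PRAME, an antigen also shown to T cells by melanomas, went from 20.4 ± 0.769 to 31.4 ± 0.977 CPM (± SD, n = 3 per group), or 0.62 in log2 (edgeR adjusted p = 0.0145), a call lost without shCon 2 or shSOX4 2, while XAGE1A and XAGE1B had values of 0.24 and 0.15 and DDX43 of 0.11, none of them called.

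None of 6 germ cell markers (DAZL, DDX4, SYCP3, POU5F1, NANOS3 and DPPA3) had a row. Of 3 endothelial markers CDH5 alone had one, through its shSOX4 level, and its level went from 0.722 ± 0.21 to 5.88 ± 1.03 CPM (± SD, n = 3 per group). PECAM1 and VWF had no row, nor had the leukocyte markers PTPRC, CD3E and LYZ. A part of other cell types in the MAGEA values was not tested.

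**Figure D5:**
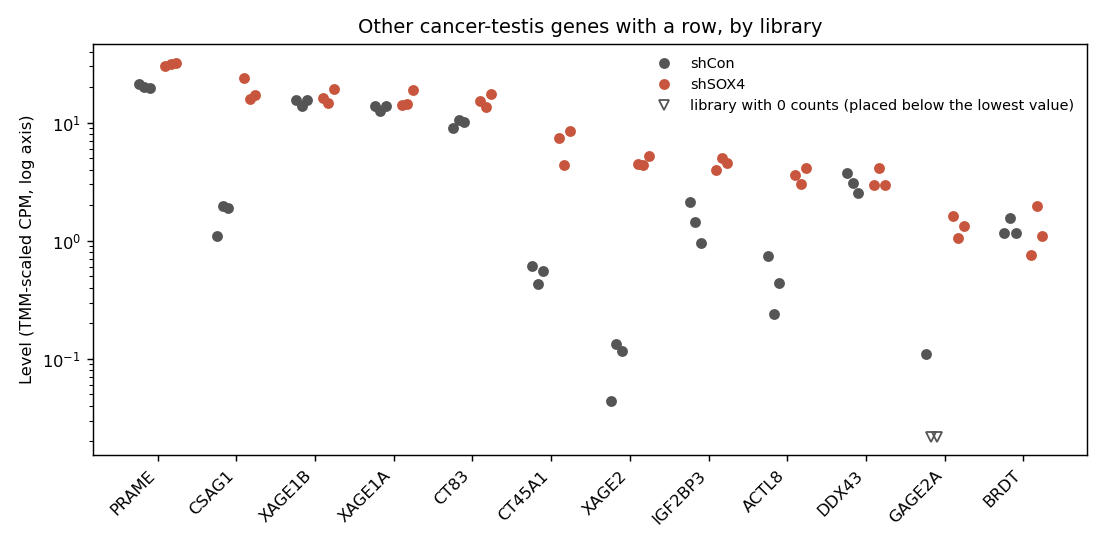
Level of the 12 other cancer-testis genes with a row in each library, in TMM-scaled CPM on a log axis, shCon in grey and shSOX4 in red, with open triangles for libraries with 0 counts. CSAG1, CT45A1, XAGE2, ACTL8 and GAGE2A separate widely, the groups of XAGE1B, DDX43 and BRDT overlap, and those of XAGE1A lie next to each other.

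Enzymes and readers of DNA methylation, on which silencing of type I genes is known to depend, showed 5 of 17 called higher and none lower (edgeR; 4 lower at an unadjusted p under 0.05, 2 by DESeq2 and none by limma-voom), with a median log2 fold change of 0.05. Over all features, edgeR called 17% higher and 15.8% lower. Of the 15 that control libraries alone would have admitted, 4 were called higher. TDG, the glycosylase that removes oxidised methylcytosine from DNA, went from 6.71 ± 2.16 to 24.3 ± 8.08 CPM (± SD, n = 3 per group), or 1.85 in log2, SE 0.29 (edgeR adjusted p = 0.000376). TET3, a dioxygenase that oxidises methylcytosine, rose by 0.94 in log2 (edgeR adjusted p = 0.00394). The methyl-CpG reader ZBTB38 rose by 0.70 in log2 (edgeR adjusted p = 0.0137), a call lost without shSOX4 2, where 3 of the list were called higher. ZBTB33 (also called Kaiso), another reader, was below 1 CPM in shCon 3 and had a row through its shSOX4 level; it stood at 1.28 ± 0.274 CPM in shCon and 3.57 ± 0.351 CPM in shSOX4 (± SD, n = 3 per group). The 3 methyltransferases and UHRF1 were not called by edgeR and are named after their values were seen. DNMT1, which copies methylation after replication, stood at 157 ± 14.3 and 129 ± 2.11 CPM (log2 -0.28, edgeR adjusted p = 0.174), UHRF1, which recruits it, at 118 ± 5.4 and 89 ± 8.37 CPM (-0.41, edgeR adjusted p = 0.0592), and DNMT3A at 20.4 ± 0.89 and 14.5 ± 0.764 CPM (-0.49, edgeR adjusted p = 0.0501; SD, n = 3 each). DNMT3A and UHRF1 were the 2 that DESeq2 called lower, with adjusted p = 0.024 and 0.0384, and without shCon 3 and shSOX4 1 edgeR called DNMT3A lower too (log2 -0.51, adjusted p = 0.0235). DNMT3B, which like DNMT3A sets new methylation, had the opposite sign, at 3.68 ± 0.165 CPM in shCon and 5.18 ± 0.672 CPM in shSOX4 (0.49 in log2, edgeR adjusted p = 0.129), without overlap.

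Among histone-based repressors of germline genes, 2 of 18 were called higher and none lower (edgeR; 1 lower at an unadjusted p under 0.05, 1 by DESeq2 and none by limma-voom), with a median of 0.11. Beside these stand 17% of all features higher and 15.8% lower. SUV39H2, a histone H3 lysine methyltransferase, went from 4.21 ± 0.836 to 10.3 ± 2 CPM (± SD, n = 3 per group), or 1.29 in log2 (edgeR adjusted p = 0.00134). MGA, the scaffold of the repressive complex that also holds E2F6 and PCGF6, went from 4.57 ± 0.321 to 9.95 ± 3.21 CPM (± SD, n = 3 per group), or 1.12 in log2 (edgeR adjusted p = 0.00442). Without shSOX4 1, 5 of the 18 were called higher.

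Against 17% of all features called higher and 15.8% lower, 2 of 7 transcription factors known to act at MAGEA promoters were called higher and none lower (edgeR; 1 lower at an unadjusted p under 0.05, none by DESeq2 or limma-voom). The 7 are those with a row, and their median was 0.04. The 2 called were SP3 (log2 0.63, edgeR adjusted p = 0.0358) and the Ets factor GABPA (0.63, edgeR adjusted p = 0.0364), and neither was called without shCon 2, shCon 3 or shSOX4 2. Only GABPA was called without shSOX4 3 and only SP3 without shCon 1.

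Ligases and the deubiquitinase that MAGE proteins bind had 1 of 7 called lower and none higher (edgeR; 1 higher at an unadjusted p under 0.05, 1 by DESeq2 and none by limma-voom), and a median of 0.14. For all features the shares were 15.8% lower and 17% higher. TRIM27, the ligase bound by MAGEL2, went from 139 ± 19.8 to 95 ± 5.27 CPM (± SD, n = 3 per group), or -0.54 in log2 (edgeR adjusted p = 0.0199), a call lost without shSOX4 2. TRIM28, the partner of MAGEA3 and MAGEA6, stood at 318 ± 72.9 CPM in shCon and 351 ± 41.3 CPM in shSOX4 (log2 0.14, edgeR adjusted p = 0.564). It is named after its values were seen, and its groups overlapped.

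In the SMC5/6 complex, 3 of 9 genes were called higher and none lower (edgeR; none lower at an unadjusted p under 0.05, by DESeq2 or by limma-voom), with a median of 0.35. The shares over all features were 17% higher and 15.8% lower. SLF1, which helps bring the complex to damaged DNA, went from 2.25 ± 0.133 to 12.7 ± 2.68 CPM (± SD, n = 3 per group), or 2.49 in log2, SE 0.242 (edgeR adjusted p = 4.7e-06). SMC6 (0.70, edgeR adjusted p = 0.0269) and the SUMO ligase NSMCE2 (0.59, edgeR adjusted p = 0.0294) were not called without shCon 2, shCon 3, shSOX4 2 or shSOX4 3, which left SLF1 as the 1 called.

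Known substrates and bound proteins of MAGE proteins went both ways, 4 of 12 higher and 5 lower (edgeR), with a median of -0.24. Of all features, 17% were called higher and 15.8% lower. Control libraries alone would have admitted 11 of the 12. VPS35, a subunit of the retromer sorting complex, rose by 0.98 in log2 (edgeR adjusted p = 0.0066). MMS19, the MAGEF1 substrate, went from 135 ± 23.3 to 84.4 ± 7.16 CPM (± SD, n = 3 per group), or -0.68 in log2 (edgeR adjusted p = 0.00843). Without shSOX4 2 neither of these was called, and 1 of the list was higher and none lower. Without shSOX4 3, 2 of the list were higher and 1 lower. The number higher was 2 without any single shCon library, and the number lower was 3 without shCon 2 or shCon 3.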

How the data were processed

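RNA-seq of 3 shCon and 3 shSOX4 libraries of DU145 cells was read from 1 deposited table of 13527 features. Its NC columns were taken to be the shCon libraries and its SH columns the shSOX4 libraries, numbered alike. Per the file headers it holds a raw count for each gene and library (deposited as integers) and an FPKM value that the authors scaled for length and depth. The authors' adjusted p-value and the authors' log2 fold change stand in the same table, per the file headers. The submitters' processing notes name HISAT2 and STAR and the build hg19, without roles; no source used here names the counting program or its strand setting. Every feature had at least 1 CPM in at least 3 libraries. The share of features whose count-to-FPKM ratio stayed within 5% of its mean, after scaling per library, was 60.5%.

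Levels are TMM-scaled CPM. Groups were compared with edgeR 4.0.16 in R 4.3.3 (filterByExpr, which removed 0 features, and the quasi-likelihood F test, two-sided, group as the only term), with Benjamini-Hochberg adjustment over all features at 0.05. Intervals of 95% used the fit's error and degrees of freedom. The steps were tested on simulated data. Lists were described by counts and medians, with no set test. Members and lists were chosen with earlier results of these data known. Named genes are the members, the other MAGE genes with a row, up to 4 called genes of each list with the smallest adjusted p (all where 4 or fewer had a row), and the 4 genes closest to each type's profile. Some genes that this rule names are not reported here. Symbols were matched for 12386 of 12411 annotated identifiers. Promoters are from RefSeq's GRCh38.p14. Alternatives were other scaling (RLE, total count), other filters (none, or 1 CPM throughout a group), other tools (DESeq2 1.42.0, voom in limma 3.58.1, and limma for features averaging 1 FPKM or more, as log2(FPKM + 1)), the replicate number as a block, and omission of single libraries. Leaving out shCon 3 with shSOX4 1, and merging near-identical copies, were added after seeing the data.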

Additional observations from a re-analysis of the deposited data

How the results depend on the processing

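Over the alternatives run, each of the 9 members kept its direction, and the 4 type I members stayed called higher. The smallest type I values came from limma on log2(FPKM + 1), a scale that understates changes of low genes (1.75 for MAGEA3 to 2.48 for MAGEA12). The difference in the type I over type II level was 2.80 to 3.12 when 1 library was left out and 3.09 without shCon 3 and shSOX4 1. When 1 library was left out, 1411 to 2653 features were higher and 1098 to 2313 lower, and 1 to 2 type II members were called lower. With the replicate block 1 type II member was lower. Whether same-numbered libraries were paired is not known. Their deviations correlated at -0.29, 0.159 and -0.293, and 3 such values cannot decide it. With the block 1825 features were higher and 1549 lower, against 2295 and 2136 without.

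Counts in the smaller lists moved. With the replicate block, 0 partner ligases were lower, 1 gene of the SMC5/6 complex and 2 substrates were higher and 3 lower, and 0 transcription factors of MAGEA promoters were higher. Under total-count scaling the numbers higher were 1 (SMC5/6), 2 (substrates) and 0 (transcription factors), and 1 methylation gene and 1 histone-based repressor were lower. With limma on log2(FPKM + 1), 1 was higher in SMC5/6, 2 among substrates, 1 among methylation genes and 1 among transcription factors. With DESeq2, 1 partner ligase and 4 histone-based repressors were higher, and 2 methylation genes and 1 repressor lower; limma-voom gave 4 repressors higher. RLE scaling gave 1 methylation gene lower, and 1 CPM in every library of a group gave 1 repressor lower. Without shCon 3 and shSOX4 1, 1 other type II gene, 2 methylation genes and 1 repressor were lower, and 1 ligase and 5 repressors higher. Leaving out 1 library gave 0 to 1 other type II genes lower, 0 to 1 ligases higher and 0 to 1 lower, 1 to 3 higher in SMC5/6, 1 to 4 substrates higher and 0 to 4 lower, 3 to 6 methylation genes higher, 2 to 5 repressors higher and 0 to 1 lower, and 0 to 2 transcription factors higher. The cause of these moves was not tested. At 43 to 142 control counts a library, MAGEA levels in shCon carry the largest counting error of the members.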
